A study of Mus musculus with 4 samples.

Results

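The heat shock and ER chaperone genes are a list of 32 protein-folding and stress genes, taken by gene symbol out of 55357 genes in the feature table of a single-cell RNA-seq study of mouse bone marrow. All 32 were found. They take 33 rows of that table because Ddit3 has a second row for an overlapping locus, which held 0 UMIs in every deposited barcode and was left out. The cells were LSK cells (lineage-negative, Sca-1+ Kit+), the sorted fraction that holds haematopoietic stem cells and early multipotent progenitors. In the Yoda1 group (2 libraries), wild-type mice received Yoda1, a chemical agonist of the mechanosensitive ion channel Piezo1, by intraperitoneal injection for 2 weeks. In the control group (2 libraries), wild-type mice received vehicle. The labels give no strain, age or sex and do not state whether the libraries of a group come from different mice. A p-value between treatments therefore rests on the spread between libraries, which may be technical.

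Heat shock proteins are chaperones that hold or refold other proteins in the cytosol and mitochondria, and the transcription factor HSF1 drives many of their genes when unfolded protein accumulates. In the endoplasmic reticulum (ER), a separate set led by Hspa5 (BiP) folds secreted and membrane proteins, and the unfolded protein response raises that set through the factors ATF6, XBP1 and ATF4. Granule-forming myeloid progenitors make large amounts of secretory protein, whereas haematopoietic stem cells are known for low protein synthesis. The members fall into 14 heat shock genes and 18 ER genes. The heat shock group holds 11 cytosolic members (Hspa1a, Hspa1b, Hsp90aa1, Hsp90ab1, Hspa8, Hsph1, Dnaja1, Dnajb1, Hspb1, Bag3 and Hspa4) and 3 mitochondrial members (Hspe1, Hspd1 and Hspa9). The ER group holds 12 ER chaperones and folding factors (Hspa5, Hsp90b1, Dnajb9, Dnajb11, Pdia3, Pdia4, Pdia6, Calr, Canx, Sdf2l1, Manf and Herpud1) and 6 regulators or targets of the stress response (Ddit3, Atf4, Xbp1, Trib3, Asns and Chac1).

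The promoters of all members with an entry were searched for the motifs named after these responses, and the stretches that carry them are shown because they mark which members share a regulatory sequence with the same name as the group. The window was 250 bases before to 50 bases after the RefSeq start, on GRCm38.p6, both strands, and 27 of the 32 members had an entry (Hsp90aa1, Hsp90ab1, Hspa8, Hspa9 and Manf had none). The ER stress element (CCAAT and CCACG with any 9 bases between them) was found in 5 of 17 matched ER members, and in 0.119% of all 32851 promoter windows. Capitals mark the motif, on the strand of the gene and read 5′ to 3′, and the CGTGG-first form is the same motif on the other strand.
Hspa5, chr2:34772020-34772048, plus strand: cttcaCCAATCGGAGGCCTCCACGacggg
Pdia6, chr12:17266486-17266514, plus strand: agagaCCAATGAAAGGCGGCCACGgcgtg
Calr, chr8:84847070-84847098, minus strand: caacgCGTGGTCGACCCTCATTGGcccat
Canx, chr11:50325795-50325823, minus strand: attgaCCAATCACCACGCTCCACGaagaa
Hsp90b1 nearer site, chr10:86705528-86705556, minus strand: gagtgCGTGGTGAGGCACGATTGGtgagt
Hsp90b1 farther site, chr10:86705633-86705661, minus strand: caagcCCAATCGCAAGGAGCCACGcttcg
The first motif base lay 65 bases before the RefSeq start of Hspa5, 98 before that of Pdia6, 162 before that of Calr and 145 before that of Canx. In GENCODE M21 the Hspa5 stretch lies in a UTR exon of a longer Hspa5 gene model and the other 5 are intergenic. None of the 10 matched heat shock members held this motif.

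The heat shock element (GAA, TTC and GAA, each pair with any 2 bases between) was found in 3 of the 10 matched heat shock members, Hspd1, Hspe1 and Hsph1, in 0 of 17 ER members and in 0.603% of all windows. Hspd1 and Hspe1 lie head to head and share 1 stretch with 2 overlapping matches, so it is shown once, on the Hspe1 strand, with both matches in capitals.
Hspe1, chr1:55088054-55088081, plus strand: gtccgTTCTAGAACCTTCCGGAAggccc
Hsph1, chr5:149636280-149636308, minus strand: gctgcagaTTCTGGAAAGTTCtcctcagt
On the strand shown, the Hsph1 match and the first Hspe1 match read TTC, GAA and TTC, the reverse complement of the motif, and the second Hspe1 match reads GAA, TTC and GAA. GENCODE M21 places the shared stretch in a UTR exon of Hspd1 and the Hsph1 stretch in a UTR exon of Hsph1. For the amino acid response element only the letters TGATGNAAT were searched, and variants with another last base were not. These letters were in 0 members and in 0.965% of all windows. The absence of a motif says only that these letters are not in this window.

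The files held 9692 and 10168 barcodes for Yoda1, and 8236 and 8709 for control, with 14 to 30 barcodes shared between any pair of libraries. Cells entered the analysis if they showed 500 or more genes, 1000 or more UMIs and no more than 10% mitochondrial UMIs, which left 9122 and 9756 Yoda1 cells and 7620 and 7822 control cells. Their UMIs summed to 110493533 and 90577494 for Yoda1, and to 103007020 and 89058521 for control. Kit ranged over the 4 libraries from 98.4 to 156 counts per 1000000 UMIs (CPM) and Ly6a, which encodes Sca-1, from 97.9 to 262 CPM, while the lineage genes Cd3e and Ly6g each stayed at or below 0.563 CPM. Yoda1 library 2 stood apart in its make-up. A gate on 7 granulocyte-monocyte genes (at least 30 UMIs of Mpo, Elane, Prtn3, Ctsg, Ms4a3, Cebpe and Fcgr3 in cells thinned to 3000 UMIs) took 17.6% and 2.17% of Yoda1 cells, against 22.7% and 16.2% of control cells. A gate on stem cell genes, called HSC-like here, took 7.01% and 18.4% of Yoda1 cells, against 4.10% and 5.50% of control cells. In sums over all cells of a library, fewer cells of a type and less RNA per cell cannot be told apart. Yoda1 library 1 had the highest summed level of 8 interferon-induced genes, 9.68 UMIs per 10000, with 1.73 in Yoda1 library 2, against 3.15 and 2.22 in the controls.

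Over all kept cells the heat shock group took 84.2 and 67.8 of every 10000 UMIs in Yoda1 libraries, against 81.5 and 68.5 in control libraries. The ER group took 41.9 and 27.0 in Yoda1 libraries, against 42.8 and 36.2 in control libraries. The treatments overlapped in both groups, and the low value in the ER group belonged to Yoda1 library 2. Hsp90ab1, the constitutive cytosolic HSP90, supplied 45.5% to 47.6% of the heat shock group's UMIs, and Calr, the calcium-binding lectin chaperone calreticulin, 21.1% to 29.6% of the ER group's. The inducible cytosolic HSP70 genes Hspa1a and Hspa1b, which are near-identical copies whose reads counting can split, were close to 0. Hspa1a had 11 and 69 UMIs in the whole Yoda1 libraries, against 17 and 22 in the controls. Hspa1b had 20 and 64 UMIs in Yoda1 libraries, against 27 and 14 in the controls. Hspb1, the small heat shock protein HSP27, had 27 and 17 UMIs in Yoda1, against 7 and 2 in control. Chac1, a glutathione-degrading target of ATF4, stayed between 0.10 and 0.26 CPM. Of the 32 members, 26 had a mean of at least 10 CPM.

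**Figure D1:**
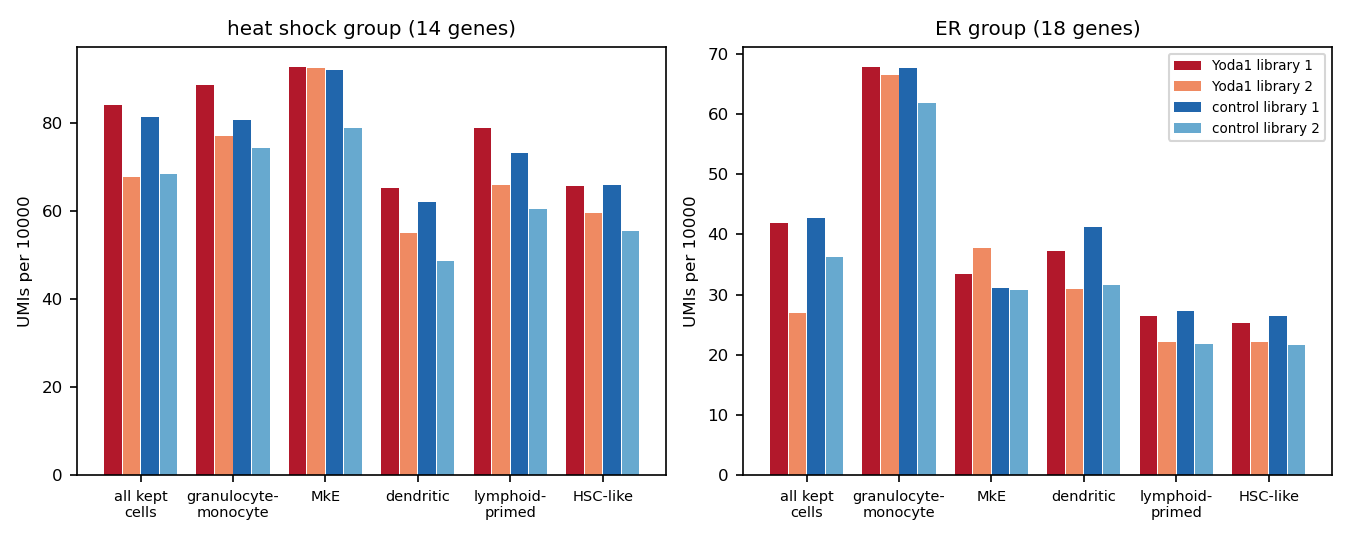
Summed UMIs of the heat shock group (left, 14 genes) and the ER group (right, 18 genes) per 10000 UMIs, for all kept cells and for 5 marker gates, with 1 bar per library. The ER group stands at 61.9 to 67.8 in the granulocyte-monocyte gate and at 21.6 to 26.4 in the HSC-like gate, and its low bar over all kept cells is Yoda1 library 2.

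Cells were assigned to gates by marker genes that include no member, which allowed the members to be tested between gates over the 4 libraries, both treatments together. The gates are named after their markers, and their names are those of marker sets, not of sorted cell types. The granulocyte-monocyte gate held 202 to 1679 cells per library, the megakaryocyte-erythroid gate (markers such as Gata1, Klf1 and Pf4) 257 to 1536, the dendritic gate (class II genes and Siglech) 53 to 99, the lymphoid-primed gate (Flt3, Dntt, Satb1, Il7r and Rag1) 811 to 2226 and the HSC-like gate (such as Hlf, Procr and Mecom) 303 to 1712. In each gate its own markers outnumbered those of any other among the 10 leading genes. The cells were chosen by these same markers, so this count does not check the gate names. The fitted fold changes are scaled by the trimmed mean of M-values (TMM), which centres most genes near 0, whereas CPM are plain shares of all UMIs, so a fitted fold can differ from the ratio of the CPM beside it. Scaling by library size alone, an alternative added after the data were seen, moved the median log2 fold change of all genes by -0.45 in the granulocyte-monocyte gate, -0.27 in the megakaryocyte-erythroid, -0.23 in the dendritic and -0.12 in the lymphoid-primed gate against the HSC-like gate, and by -0.10 in cycling against non-cycling cells. Counts of members under that scaling are given beside those under TMM.

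ER chaperones were higher in the granulocyte-monocyte gate than in the HSC-like gate. The ER group took 67.8 and 66.5 of 10000 UMIs in Yoda1 and 67.6 and 61.9 in control granulocyte-monocyte cells, against 25.3 and 22.1 in Yoda1 and 26.4 and 21.6 in control HSC-like cells. The gate sum was 2.56 to 3.01 times the HSC-like sum in the 4 libraries, with no overlap. Of 17 ER members tested, 14 were higher and 2 lower, where 70.9% of the 13912 genes tested were called, 34.4% higher and 36.6% lower (edgeR's quasi-likelihood test, adjusted p under 0.05, library as a block). Their median log2 fold change was 1.68, against -0.05 over all genes. By role, 11 of 12 ER chaperones were higher, Dnajb9 being the one not called, while the 5 regulators tested split into 3 higher and 2 lower. Scaled by library size, 13 ER members were higher and 4 lower, where 17.5% of all genes were higher and 58.4% lower, and the ER median of 1.23 stood 1.73 above that of all genes.

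Sdf2l1 (ENSMUSG00000022769, chr16:17130138-17132383, minus strand), an ER-resident partner of BiP complexes, led the list. It had 283 and 370 CPM in Yoda1 and 258 and 283 CPM in control granulocyte-monocyte cells, against 45.5 and 41.9 CPM in Yoda1 and 60.6 and 40.5 CPM in control HSC-like cells. Every granulocyte-monocyte value lay above every HSC-like value, and the fold change was 8.94 (log2 3.16, SE 0.12, adjusted p = 1.59e-13). Calr averaged 1904 ± 205 CPM in the granulocyte-monocyte gate and 571 ± 123 CPM in the HSC-like gate (SD, n = 4 libraries each), a 4.61-fold difference (log2 2.20, SE 0.08). Pdia6, a protein disulfide isomerase, averaged 694 ± 77.5 CPM in the granulocyte-monocyte gate and 206 ± 12.0 CPM in the HSC-like gate (SD, n = 4 libraries each), a 4.58-fold difference (log2 2.20, SE 0.07). Hspa5 itself averaged 804 ± 49.4 CPM in the granulocyte-monocyte gate and 243 ± 9.99 CPM in the HSC-like gate. Its log2 fold change of 2.17, those of Manf (2.11) and Hsp90b1 (1.94), and that of Xbp1 (1.31), a transcription factor of the response, are named here after their values were seen. The 5 members with an ER stress element shown above were all higher in this gate, with log2 fold changes between Canx at 1.25 and Calr at 2.20, but Sdf2l1 and Dnajb11, which lack that motif in the window, were higher too.

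The stress regulators split between higher and lower members. Ddit3 (CHOP; ENSMUSG00000025408, chr10:127290774-127296288, plus strand, GENCODE M21 on GRCm38), the death-associated transcription factor of prolonged ER stress, had 10.1 and 13.2 CPM in Yoda1 and 12.3 and 11.7 CPM in control granulocyte-monocyte cells. In HSC-like cells Ddit3 had 29.2 and 27.3 CPM in Yoda1 and 32.5 and 28.1 CPM in control. The ranges did not overlap, and the log2 fold change was -0.89 (SE 0.11, adjusted p = 8.97e-07). Trib3 (ENSMUSG00000032715, chr2:152337422-152344032, minus strand), a pseudokinase induced by CHOP and ATF4, was below the 10 CPM limit for naming and is described because its values stood out once seen. It had 5 and 0 UMIs in Yoda1 and 7 and 3 UMIs in control granulocyte-monocyte cells, against 30 and 140 in Yoda1 and 18 and 18 in control HSC-like cells. In CPM the HSC-like gate gave 7.07 and 10.7 in Yoda1 and 7.69 and 6.02 in control, and the lymphoid-primed gate gave 1.75 and 3.74 in Yoda1 and 2.36 and 2.39 in control. Trib3 reached the filter on low counts only through the HSC-like gate in the comparisons of the granulocyte-monocyte, megakaryocyte-erythroid and dendritic gates, so its place among the lower members there supports nothing. The 0 UMIs of Yoda1 library 2 in the granulocyte-monocyte gate allow up to 0.746 CPM (3 UMIs, counting error only), below all 4 HSC-like levels. Atf4, the translation-controlled master factor of the integrated stress response, averaged 84.9 CPM in the granulocyte-monocyte gate and 98.0 CPM in the HSC-like gate, yet its fitted log2 fold change after TMM scaling was 0.24, and -0.21 when scaled by library size, so its direction rests on the scaling.

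Among the heat shock genes, 9 of 11 tested were higher and 0 lower in the granulocyte-monocyte gate, Dnajb1 and Bag3 not being called. The median log2 fold change of the 11 was 0.79. Over all 13912 genes tested in this comparison, 34.4% were higher and 36.6% lower. Scaled by library size, 8 heat shock members were higher and 2, Dnaja1 and Dnajb1, lower. The median of 0.35 stood 0.85 above that of all genes. Under that scaling 17.5% of all genes were higher and 58.4% lower. The heat shock sum was 1.23 to 1.35 times that of the HSC-like gate, a smaller ratio than the ER sum's in all 4 libraries. Hspa1a, Hspa1b and Hspb1 did not pass the filter on low counts in any comparison between gates, nor did Chac1, so the counts between gates cover 28 members and not 32. In the other genes of both pathways, lists of 34 HSF1-network and 28 unfolded-protein or integrated-stress genes, 26 of 33 HSF1-network genes tested were higher and 4 lower, and 17 of 25 stress genes were higher and 5 lower. Scaled by library size these counts were 21 higher and 6 lower, and 12 higher and 7 lower. Named after their values were seen, the ER genes Edem1 (log2 2.21), Ero1a (2.11), Hyou1 (2.08) and P4hb (2.07) were higher, and the stress-inducible Nupr1 (-3.13), Ddit4 (-2.24) and Ppp1r15a (-1.82) were lower. Immediate early genes, which tissue handling can raise, were lower for 8 of 8 tested, with a median of -1.91, as were 8 of 8 interferon genes, with a median of -1.92. Depth and cycling moved with the gates. Granulocyte-monocyte cells had median depths of 16469 to 19521.5 UMIs and were 33.9% to 43.6% cycling, against 5484 to 6123.5 UMIs and 12.9% to 17.8% in HSC-like cells. With every cell thinned to 3000 UMIs, or with cycling cells left out, the fold changes of Sdf2l1, Calr and Pdia6 stayed called: over 12 settings they ranged from 2.71 to 3.50, 1.76 to 2.34 and 1.75 to 2.32 on the log2 scale, the lowest values being those scaled by library size.

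**Figure D2:**
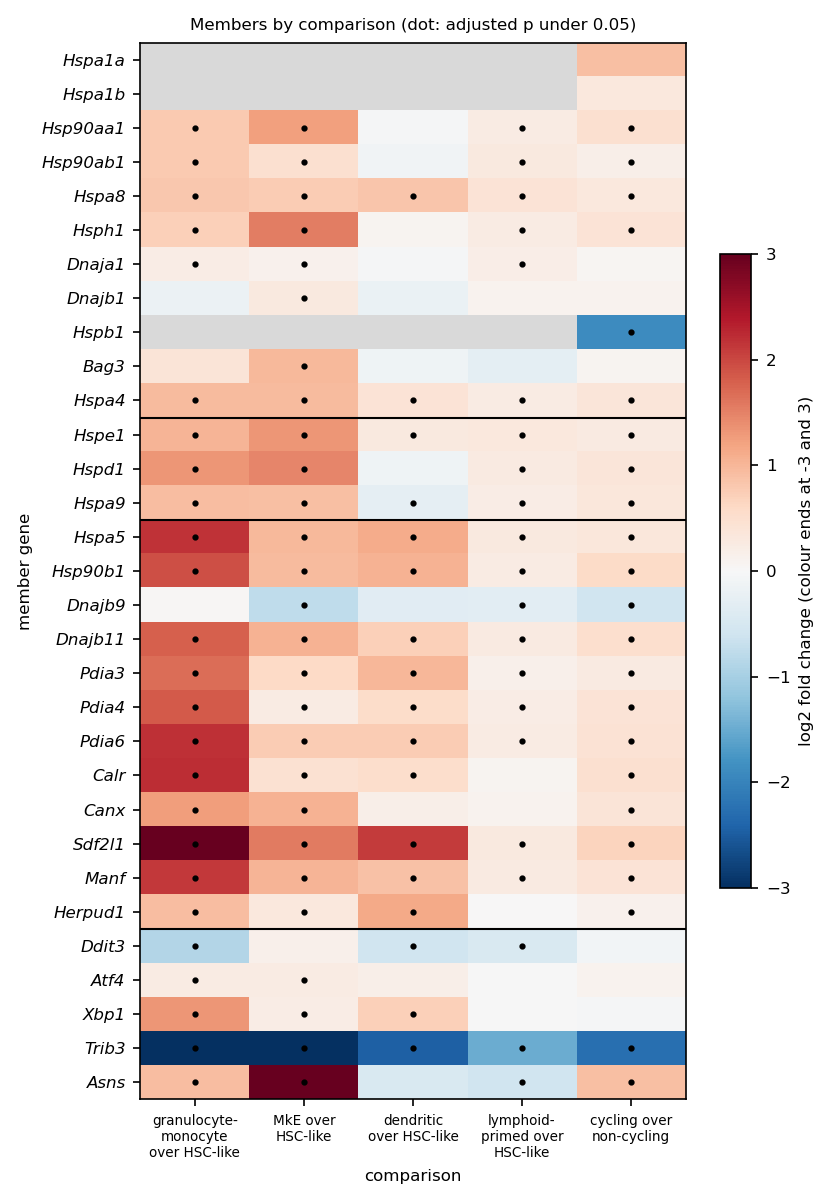
Log2 fold change of each member tested (rows, grouped by role with lines between cytosolic, mitochondrial, ER chaperone and stress regulator genes) in 4 gates over the HSC-like gate and in cycling over non-cycling cells. Dots mark an adjusted p under 0.05 and grey cells were not tested. Sdf2l1 reaches 3.16 in the granulocyte-monocyte column, Asns 3.03 in the megakaryocyte-erythroid column, and Trib3 is negative in every column. In the granulocyte-monocyte, megakaryocyte-erythroid and dendritic columns Trib3 passed the filter on low counts only through the HSC-like gate, so its sign there supports nothing.

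In the megakaryocyte-erythroid gate heat shock genes and ER chaperones were both higher, and a single amino acid enzyme had the largest fold change. All 11 heat shock members tested were higher, as were 14 of 17 ER members, with Dnajb9 and Trib3 lower. The Trib3 call supports nothing, because Trib3 passed the filter on low counts only through the HSC-like gate. Over all 14003 genes tested 69.3% were called, 33.7% being higher and 35.7% lower. The median log2 fold change was 0.95 for the heat shock members and 0.59 for the ER members, against -0.05 over all genes. By role the medians were 0.86 (cytosolic), 1.33 (mitochondrial), 0.85 (ER chaperones) and 0.22 (stress regulators). Scaled by library size, 9 heat shock members were higher and 0 lower, and 10 ER members higher and 2 lower, where 22.0% of all genes were higher and 48.9% lower. The heat shock sum was 1.40 to 1.55 times and the ER sum 1.18 to 1.71 times the HSC-like sum. Of the 26 members that averaged at least 10 CPM in some gate, 8 had their highest mean level here among the 5 gates tested, among them all 3 mitochondrial members. Hspe1 (HSP10) and Hspd1 (HSP60), the paired mitochondrial chaperonins whose shared stretch is shown above, had log2 fold changes of 1.33 and 1.47.

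Asns (ENSMUSG00000029752, chr6:7675169-7693254, minus strand), asparagine synthetase and a target of ATF4, had 79.8 and 81.4 CPM in Yoda1 and 73.9 and 63.3 CPM in control megakaryocyte-erythroid cells. In HSC-like cells Asns had 10.6 and 11.7 CPM in Yoda1 and 8.97 and 12.7 CPM in control. The groups of values were far apart, with a fold change of 8.19 (log2 3.03, SE 0.10, adjusted p = 3.32e-14). Hsph1 (HSP105), a nucleotide exchange factor of HSP70, had 106 and 114 CPM in Yoda1 and 98.9 and 69.3 CPM in control cells of this gate, against 47.8 and 45.1 CPM in Yoda1 and 38.0 and 29.4 CPM in control HSC-like cells. All gate values were above the HSC-like ones (2.91-fold, log2 1.54, SE 0.08, adjusted p = 3.02e-12). Sdf2l1 was 2.93-fold higher. Dnajb9 (ERdj4), a BiP co-chaperone that restrains the sensor IRE1, was lower, at 12.5 and 12.6 CPM in Yoda1 and 14.04 and 20.4 CPM in control cells of this gate. HSC-like cells had 23.8 and 33.8 CPM of Dnajb9 in Yoda1 and 28.6 and 36.5 CPM in control, and the log2 fold change was -0.77 (SE 0.11, adjusted p = 4.87e-06). Trib3 had 5 and 0 UMIs in Yoda1 and 9 and 4 UMIs in control cells of this gate. Unlike in the granulocyte-monocyte gate, Ddit3 was not called here, with a log2 difference of 0.16 under TMM and -0.11 scaled by library size. The 2 gates were not tested against each other.

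The dendritic gate, with 53 to 99 cells per library, had higher ER chaperones, while most heat shock members were not called. Of 17 ER members, 11 were higher and 2, Ddit3 and Trib3, lower, and of 11 heat shock members 3 were higher and 1 lower, beside 36.7% of 11080 genes called, 19.9% higher and 16.7% lower. Here too Trib3 passed the filter on low counts only through the HSC-like gate, so its call supports nothing. The ER sum was 1.40 to 1.56 times the HSC-like sum and the heat shock sum 0.88 to 0.99 times. The direction of the heat shock calls rests on the scaling: scaled by library size, 1 member was higher and 6 lower, where 12.9% of all genes were higher and 33.0% lower, while 10 ER members were higher and 3 lower. Sdf2l1 was 4.28-fold higher (log2 2.10, SE 0.10) and Hspa5 2.15-fold (log2 1.10, SE 0.09). Herpud1, a component of ER-associated degradation, was higher in this gate than in the other 4 gates tested in all 4 libraries, at 106 and 116 CPM in Yoda1 and 127 and 159 CPM in control cells. Its HSC-like levels were 59.8 and 78.6 CPM in Yoda1 and 64.5 and 66.6 CPM in control, a 2.19-fold difference (log2 1.13, SE 0.12, adjusted p = 1.54e-07). Ddit3 and Hspa9 were lower with adjusted p = 0.032 and 0.043, and each lost that call when any of several single libraries was left out. Leaving out Yoda1 library 2, control library 1 or control library 2 gave adjusted p = 0.055, 0.15 and 0.14 for Ddit3. Leaving out Yoda1 library 1, Yoda1 library 2 or control library 2 gave 0.068, 0.14 and 0.15 for Hspa9.

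In the lymphoid-primed gate most heat shock members and ER chaperones were slightly higher under TMM. Here 9 of 11 heat shock members were higher and 0 lower, and 8 of 17 ER members were higher, all of them among the 12 ER chaperones, and 4 lower, beside 41.4% of 14059 genes called, 21.9% higher and 19.5% lower. Scaled by library size, 5 heat shock members were higher and 0 lower, and 4 ER members were higher and 4 lower, where 12.7% of all genes were higher and 29.7% lower. Fold changes were small. Hspa8, the constitutive HSC70, was 1.32-fold higher (log2 0.40, SE 0.04, adjusted p = 3.18e-09), Hspe1 1.24-fold and Hspa5 1.23-fold. Ddit3 was lower, with a log2 fold change of -0.46 (SE 0.08, adjusted p = 6.66e-05), and so was Dnajb9, at -0.33 (SE 0.08, adjusted p = 0.0023). As plain shares of UMIs, the heat shock sum was 1.09 to 1.20 times and the ER sum 1.01 to 1.04 times the HSC-like sum. None of the 5 stress regulators tested was higher and 3 were lower, Trib3 at -1.48, Asns at -0.61 and Ddit3.

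**Figure D3:**
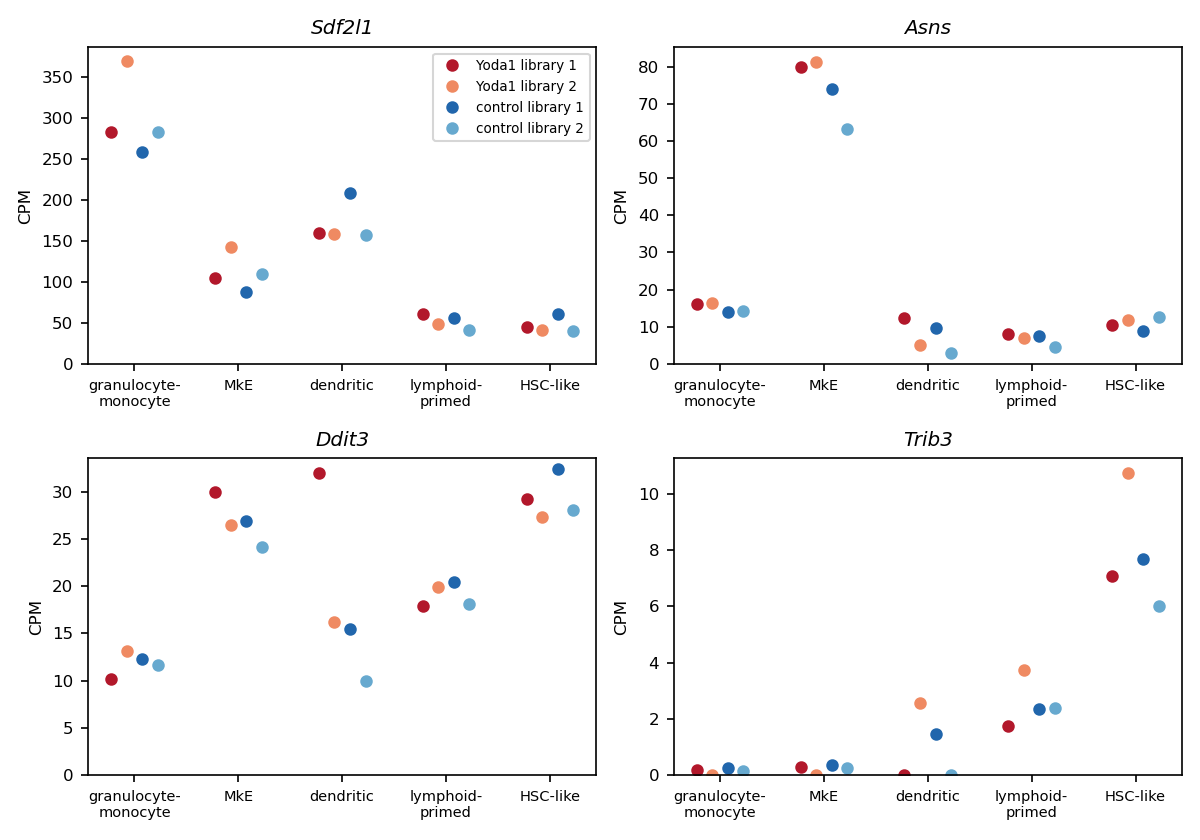
CPM of Sdf2l1, Asns, Ddit3 and Trib3 in 5 marker gates, with 1 point per library (Yoda1 points left of control points). Sdf2l1 is highest in the granulocyte-monocyte gate (258 to 370 CPM), Asns in the megakaryocyte-erythroid gate (63.3 to 81.4 CPM) and Trib3 in the HSC-like gate (6.02 to 10.7 CPM).

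Cycling cells, with at least 3 of the 6 genes Mki67, Top2a, Cenpf, Ccnb1, Cdk1 and Birc5, were compared with cells that had none. Of 14 heat shock members 8 were higher and 1, Hspb1 (0 to 0.44 CPM), lower, and of 17 ER members 12 were higher and 2 lower, beside 56.0% of 16362 genes called, 27.1% higher and 28.9% lower. Hspb1 averaged 0.14 CPM over these sums, close to the filter on low counts, so its call supports nothing. The median log2 fold changes were 0.32 and 0.39, against -0.04 over all genes. Scaled by library size, 8 heat shock members were higher and 1, again Hspb1, lower, and 11 ER members higher and 3 lower, where 19.2% of all genes were higher and 38.5% lower. The heat shock sum was 1.06 to 1.19 times and the ER sum 1.16 to 1.28 times the non-cycling sum. Asns had 30.004 and 16.5 CPM in Yoda1 and 33.4 and 25.1 CPM in control cycling cells, against 15.5 and 12.4 CPM in Yoda1 and 18.3 and 12.6 CPM in control non-cycling cells. It was higher in every library, by 1.88-fold (log2 0.91, SE 0.09, adjusted p = 0.00010). Sdf2l1 was 1.58-fold and Hsp90b1, the ER form of HSP90, 1.48-fold higher. Dnajb9 was lower (log2 -0.59, SE 0.06, adjusted p = 9.07e-05), as was Trib3, with 0.447 and 1.50 CPM in Yoda1 and 0.436 and 0.489 CPM in control cycling cells. Non-cycling cells had 2.40 and 8.21 CPM of Trib3 in Yoda1 and 2.18 and 2.24 CPM in control. Median depth was 12964.5 to 15966 UMIs in cycling and 6147 to 7098 in non-cycling cells, and the lineage gates hold different shares of cycling cells.

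The comparison that the study was built for, Yoda1 against control, called no member. On simulated counts this test over all kept cells recovered 16.7% of 2-fold changes, so a lack of calls does not show a lack of change. Over all kept cells edgeR called 0 of 18182 genes (0.0% called), and 309 genes had an unadjusted p under 0.05. The alternative tools DESeq2 and limma-voom called 5 and 0 genes, none of them a member. One member, Hspb1, had an unadjusted p under 0.05 (0.020), at the UMI counts given above. The median log2 fold change was 0.01 for the 14 heat shock members and -0.16 for the 18 ER members, against 0.01 over all genes. Of the 26 members with at least 10 CPM, 0 had both Yoda1 libraries above both controls and 2, Atf4 and Xbp1, had both below, where 7.15% and 10.3% of 8378 genes at that level did.

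In the heat shock group, the smallest unadjusted p on the positive side belonged to Dnaja1, an HSP40 co-chaperone. It had 186 and 253 CPM in Yoda1 libraries, against 176 and 187 CPM in controls, and the low Yoda1 value fell between the controls (log2 0.22, SE 0.19). Hsph1 (log2 0.16, SE 0.31) and Hspa8 (0.09, SE 0.26) came next. On the negative side Hspa9 (mortalin), Hsp90aa1 and Dnajb1 had log2 fold changes of -0.12 (SE 0.25), -0.08 (SE 0.31) and -0.06 (SE 0.18). The 6 unadjusted p-values of edgeR's test ran from 0.28 to 0.80.

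In the ER group, 15 of the 16 members at 10 CPM or more had negative fold changes, from -0.42 upward. Dnajb11 stood at 0.01 (SE 0.24), and the median log2 fold change over all genes was 0.01. The share of all genes with a negative fold change was not counted. All members were measured in the same libraries, so their signs are not separate observations. The log2 ratio of the summed ER group was 0.08 with Yoda1 library 2 left out and -0.55 with Yoda1 library 1 left out. Xbp1 had 56.8 and 59.2 CPM in Yoda1 libraries, against 75.0 and 64.7 CPM in controls. Both Yoda1 values were lower, and the difference did not pass (log2 -0.32, SE 0.19, unadjusted p = 0.13 and adjusted p = 0.9999 in edgeR's test). Herpud1 had 59.5 and 79.5 CPM in Yoda1, against 78.1 and 79.5 CPM in control (log2 -0.24, SE 0.17). Atf4 had 84.0 and 90.8 CPM in Yoda1, against 97.2 and 95.7 CPM in control (log2 -0.19, SE 0.17).

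**Figure D4:**
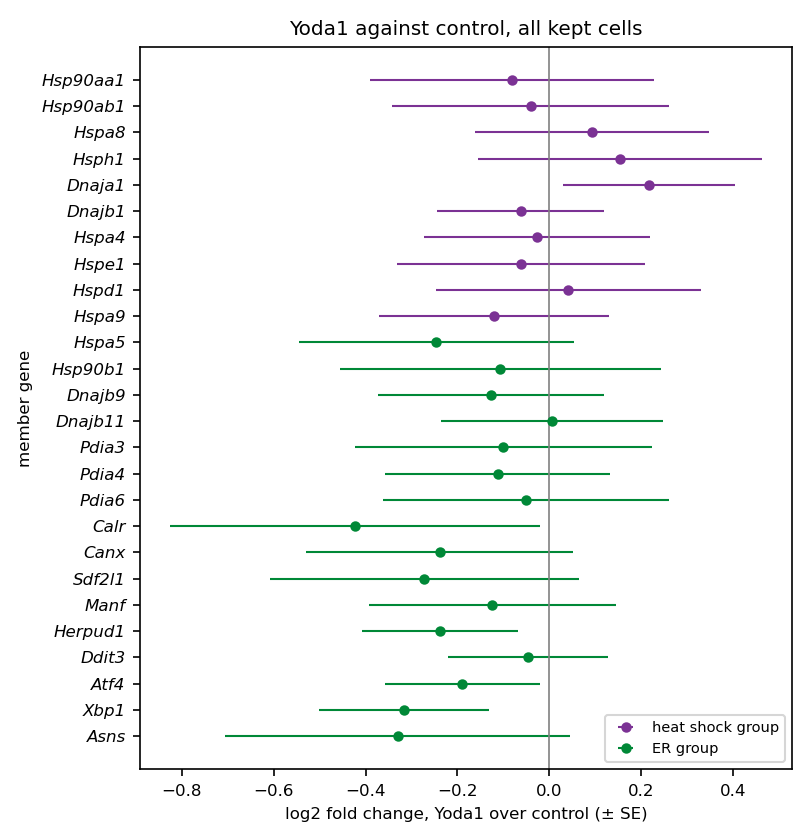
Log2 fold change of Yoda1 over control, with its standard error, for the 26 members with a mean of at least 10 CPM over all kept cells (2 libraries per treatment). The largest decrease is that of Calr at -0.42, and no member passed the adjusted threshold.

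Yoda1 library 2 had the lowest ER group sum, but not the lowest level of every ER member. Dnajb9, Herpud1, Ddit3, Atf4 and Xbp1 were lowest in Yoda1 library 1. Yoda1 library 2 stood at 1.18, 1.01, 1.04, 0.94 and 0.85 times the control mean for these. Its Calr level was 0.52 times the control mean, its Sdf2l1 level 0.60 times and its Asns level 0.59 times, whereas Yoda1 library 1 stood at 0.99, 1.07 and 1.03 times. With Yoda1 library 1 left out, these 3 genes were called lower (log2 -1.13, -0.91 and -0.95) and Trib3 higher (log2 1.95), among 938 genes called. With Yoda1 library 2 left out, 209 genes and 0 members were called. Among the 5 gates tested, Calr and Sdf2l1 were highest in the granulocyte-monocyte gate and Asns in the megakaryocyte-erythroid gate, which took 2.17% and 2.76% of the cells of Yoda1 library 2, and Trib3 was highest in the HSC-like gate, which took 18.4% of them. Over the 5 gates with the same weight in each library, which leaves out the ungated cells (44.4% of cells in Yoda1 library 2 and 34.6% to 46.5% in the others), the log2 ratio of the ER group, Yoda1 over control, was 0.03, against -0.20 over all kept cells. The part of the gate shares in the low ER level was not tested.

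Within gates no member was called between the treatments. In the granulocyte-monocyte gate the 12 ER chaperones took 65.9 and 64.2 of 10000 UMIs in Yoda1 cells, against 65.3 and 59.8 in control cells. In the HSC-like gate they took 23.4 and 19.98 in Yoda1 cells, against 24.3 and 19.6 in control cells. In the megakaryocyte-erythroid gate they took 30.9 and 35.0 in Yoda1 cells, against 28.5 and 28.5 in control cells, without overlap and with no test. Over all kept cells, 7.15% of 8378 genes had both Yoda1 libraries above both controls. That share was not counted within this gate. The 5 separate fits within gates called 0 genes each (0.0% called in all 5), and DESeq2 called 0 to 13. Members at an unadjusted p under 0.05 numbered 5 of 27 tested in the megakaryocyte-erythroid gate, where 2.14% of all genes had such a p (292 genes), 0.814% with a positive fold change. All 5 were ER chaperones with positive fold changes, named after their values were seen: Hsp90b1 (log2 0.36), Pdia6 (0.35), Manf (0.39), Dnajb11 (0.40) and Pdia3 (0.25). Their adjusted p in edgeR's test was 0.9998. The granulocyte-monocyte gate had 2 of 29 members at such a p, beside 2.7% of all genes (379), and the HSC-like gate 1 of 28, beside 2.08% (246). The lymphoid-primed and dendritic gates had 0 members, beside 1.3% (176) and 5.27% (466). Trib3 within the HSC-like gate had a log2 fold change of 0.43 (SE 0.33, unadjusted p = 0.23 in edgeR's test). A joint test of whether the Yoda1 difference varied with the gate called 9 of 14962 genes (0.0602%) and 0 members.

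Within each treatment, library 1 stood above library 2 for most members. Of 26 members at 10 CPM or more, 16 were higher in library 1 of both treatments (61.5%), against 2137 of 8378 genes at that level (25.5%), and 3 members were higher in library 2 of both. The labels do not say that equal numbers share anything, and what set this order was not tested.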

How the data were processed

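The deposited files are gene-by-barcode matrices of raw UMI counts that the authors made with Cell Ranger 7.1.0, per the file headers, on GRCm38 (mm10), per the submitters' processing notes, which also name Seurat 4.3.0. The labels name both a 10x Genomics and a Singleron microwell system, so the platform and its read layout are not settled here. No normalization by the authors is visible in the counts. The files hold 8236 to 10168 barcodes, most of which passed the filters below, so barcodes had been selected as cells before deposit.

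Barcodes with fewer than 500 genes, fewer than 1000 UMIs or more than 10% mitochondrial UMIs were dropped. No doublet caller was run. Cells were thinned to 3000 UMIs only to assign gates. Cells positive for more than 1 gate were left out, and gate thresholds were chosen after the marker distributions were seen. A gate needed 2 distinct HSC or lymphoid-primed markers, 30 UMIs of granulocyte-monocyte markers, 5 UMIs and 2 distinct megakaryocyte-erythroid markers, or 3 distinct dendritic markers, and at least 50 cells in every library. Unthinned UMIs were summed per library and gate and tested with edgeR 4.0.16 (TMM, filterByExpr, quasi-likelihood F test, Benjamini-Hochberg over all genes, threshold 0.05). Treatment was the only term between treatments, and library was a block between gates, which share libraries. Plain library size scaling was an alternative added after the data were seen. DESeq2 1.42.0 and limma 3.58.1 in R 4.3.3 were alternatives, and Python 3.11.15 built the sums. The tests were checked on simulated counts. Between treatments over all kept cells, 16.7% of 2-fold and 75.9% of 4-fold changes were recovered. Between the granulocyte-monocyte and HSC-like gates, 81.0% and 97.8% were recovered. CPM here are counts per 1000000 UMIs of the same sum. UMIs are counted per gene with no length scale, so levels are not compared between genes. The total kept UMIs per library, 89058521 to 110493533, limit precision for members with few UMIs, such as Hspa1a.

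The members and all lists were chosen with earlier results of these data known. Levels are given for every member or as a range. Yoda1 fold changes are named for the 3 smallest unadjusted p-values per direction and group at 10 CPM or more, and gate fold changes for the 3 largest called per direction at that level. Others are said to be named after their values were seen.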

Additional observations from a re-analysis of the deposited data

Results flagged for a closer look

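Barcodes above the 10% mitochondrial limit that otherwise passed the filters (294 and 176 in Yoda1, 288 and 399 in control) are outside all comparisons and were flagged because their ER group level exceeded that of every kept control library. The ER group took 86.5 of 10000 UMIs in these barcodes of Yoda1 library 1, 91.2 in control library 1 and 53.6 in control library 2, while Yoda1 library 2 had 36.6. Kept cells had 41.9 and 27.0 in Yoda1 libraries and 42.8 and 36.2 in controls. The ratio of barcodes over the limit to kept cells was 2.07 and 1.36 in Yoda1 libraries and 2.13 and 1.48 in controls. Of 13 ER members with at least 10 UMIs there in every library, 8 were above the kept level in all 4 libraries. Hspa5 was 2.04 to 3.16 times and Calr 1.24 to 2.29 times as high. Sdf2l1, at 0.74 to 1.07 times, and Manf, at 0.78 to 1.30 times, were below the kept level in some libraries. The heat shock group was lower in all 4 libraries, at 0.52 and 0.58 times the kept level in Yoda1 and 0.53 and 0.57 times in control, and 6 of 9 members with enough UMIs were below in all 4. The granulocyte-monocyte markers were also higher in barcodes over the limit in all 4 libraries, but not in step with the ER ratio. They summed to 155 and 66.1 of 10000 UMIs in Yoda1 barcodes over the limit and 232 and 118 in control ones, against 79.5 and 24.2 in kept Yoda1 cells and 100 and 94.0 in kept control cells. Their part in the result was not tested.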

How the results depend on the processing

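Counts of Yoda1 against control moved with the processing, and the cause was not tested. Over all kept cells 0 genes were called, 5 with DESeq2 and 0 to 938 with 1 library left out. The 0 within each gate became, with DESeq2, 1 (HSC-like), 2 (lymphoid-primed) and 13 (granulocyte-monocyte). Without a filter on low counts it became 67 (HSC-like), 54 (lymphoid-primed), 82 (granulocyte-monocyte), 55 (megakaryocyte-erythroid) and 73 (dendritic). A gate raised by 1 marker UMI gave 1 dendritic gene. With 1 library left out the counts were 0 to 97 (HSC-like), 0 to 102 (lymphoid-primed), 0 to 160 (granulocyte-monocyte), 0 to 15 (megakaryocyte-erythroid) and 12 to 112 (dendritic), where the lone library is assumed to vary like the others. The 9 interaction genes became 50 with DESeq2, 288 without the filter (with the members Sdf2l1 and Dnajb11), 30 with thinned UMIs and 13 to 87 with 1 library left out.

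Equal replicate numbers deviated together (correlation of library differences 0.51 over 8378 genes), but with 2 pairs and no label the numbers are not taken as pairing. The replicate block called 0 genes over all kept cells, 0 (HSC-like), 1 (lymphoid-primed), 19 (granulocyte-monocyte), 1 (megakaryocyte-erythroid) and 100 (dendritic) within gates, and 0 members.

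The log2 ratio of the ER group, Yoda1 over control, was -0.20 and ranged from -0.55 to 0.084 with 1 library left out. The 10 named treatment fold changes never passed the threshold, and 17 of 130 alternatives reversed their sign. Dnajb11 (0.01) became -0.031 with limma-voom, -0.0070 without the filter, -0.030 with the replicate block and -0.021 without the 5% of cells with the most UMIs. With 1 library left out the ranges were -0.37 to 0.30 for Dnajb11, -0.20 to 0.61 for Hsph1, -0.12 to 0.29 for Hspa8, -0.40 to 0.12 for Hspa9, -0.21 to 0.063 for Dnajb1 and -0.42 to 0.24 for Hsp90aa1. Dnajb1 (-0.06) became 0.0010 when scaled by library size.

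Between gates, 51 of 53 alternative counts of members stayed within 1.5 times, the exceptions being 11 of the 17 dendritic members with thinned UMIs and 13 lymphoid-primed members, against 21, when scaled by library size, which calls fewer small positive changes. Of 233 alternatives for 22 named fold changes, 222 kept direction and call, and 11, all for Ddit3 or Hspa9 in the dendritic gate, kept direction but lost the call. Dendritic cells outside the cycling gate were too few to test.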

Other observations

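A gate on mast cell and basophil genes (at least 3 distinct of Cpa3, Ms4a2, Hdc, Fcer1a and Gzmb) held 76 and 48 Yoda1 cells, and 103 and 143 control cells, too few in Yoda1 library 2 for the tests between gates. Its ER chaperones took 49.7 and 62.2 of 10000 UMIs in Yoda1 cells, against 48.7 and 39.1 in control cells, without overlap and with no test. Its heat shock group took 67.2 and 53.7 in Yoda1 cells, against 63.8 and 54.0 in control cells. In this gate every library's ER chaperone level lay above the highest level of the HSC-like gate (24.3) and below the lowest of the granulocyte-monocyte gate (59.8), except Yoda1 library 2, which reached 62.2.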
